A study of Mus musculus with 4 samples.

Results

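The proneural basic helix-loop-helix (bHLH) factors described here are 9 genes, *Neurog1*, *Neurog2*, *Neurog3*, *Neurod1*, *Neurod2*, *Neurod4*, *Atoh1*, *Ptf1a* and *Nhlh1*. They were chosen as a gene family, by their symbols, and are 9 of the 23420 gene symbols that were counted. RNA-seq had been carried out on 4 libraries of mouse cervical motor neuron (MN) cultures, 2 made from WT E14 embryonic stem cells and 2 made from *Patz1* -/- cells (*Patz1* KO) derived from the same line. The comparison asked which genes differ in MNs that lack PATZ1, a zinc finger protein that binds G-rich DNA. Both genotypes went through the same differentiation, first to embryoid bodies and then in all-trans-retinoic acid and smoothened agonist, which pattern neural cells towards the ventral cervical spinal cord. The KO cells were made with a CRISPR guide RNA, and the labels do not say which KO clone gave each library, so that both KO libraries may come from 1 clone. The sample titles name stem cells, while the source and cell type fields name MNs. RNA was taken from whole cultures, and for every gene below fewer cells of a type and less RNA per cell cannot be told apart.

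The WT libraries held 14769104 and 15728158 counts in all, and the *Patz1* KO libraries 23881522 and 17402342. For *Patz1* itself there were 1363 and 1499 counts in WT, and KO had 1154 and 714 left, which was 92.9 ± 1.96 CPM (counts brought to a common library size with TMM; SD, n = 2) against 45.1 ± 3.56 CPM (SD, n = 2). Its log2 fold change, *Patz1* KO over WT here and throughout, was -1.04 (SE 0.095, adjusted p = 1.1e-07, edgeR quasi-likelihood test, Benjamini-Hochberg adjusted). Reads of the gene were still counted in both KO libraries. Differences between the genotypes were widespread. An adjusted p below 0.05 was reached by 6836 (47.9%) of 14269 tested genes, with 24.1% higher and 23.8% lower in *Patz1* KO. All calls below use that threshold and that test. Motor neuron markers were detected in all 4 libraries, with *Mnx1*, a homeobox factor of MNs, at 774 and 805 counts in WT and 2383 and 1525 counts in *Patz1* KO.

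Proneural factors are transcription factors that commit a dividing neural progenitor to become a neuron. Each binds DNA as a dimer with a widely expressed bHLH partner, an E protein, at the E-box, a short site of the form CANNTG. They act in sequence, with neurogenins first and the NeuroD and Nhlh factors later in the newborn neuron, and they raise Notch ligands whose signal keeps neighbouring cells as progenitors through Hes and Hey repressors. Id proteins bind E proteins and keep them from pairing. In the ventral spinal cord *Neurog2* works together with *Olig2* in the progenitors of MNs, whereas *Atoh1* and *Ptf1a* mark dorsal progenitors and *Neurog3* marks the most ventral progenitors next to the floor plate as well as the endocrine precursors of the pancreas.

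The part of each protein that contacts DNA is the basic region. Since reads could be exchanged where genes are alike, the 30 coding bases over the most conserved stretch of this region are shown for all members. They are written 5′ to 3′ from the GENCODE M21 transcripts on GRCm38, with the 9 bases that all members share in capitals.
Neurog1: aacgatcGcGAgCGcaaccGcaTGcAcaac
Neurog2: aacaaccGcGAgCGcaaccGcaTGcAcaac
Neurog3: aatgatcGgGAgCGcaatcGcaTGcAcaac
Neurod1: aacgcccGcGAgCGgaaccGcaTGcAcggg
Neurod2: aacgcgcGgGAgCGcaaccGcaTGcAcgac
Neurod4: aatgctaGaGAaCGgacccGgaTGcAtggc
Atoh1: aacgcaaGgGAaCGgcgcaGgaTGcAcggg
Ptf1a: aatgtgcGaGAgCGgcgccGcaTGcAgtcc
Nhlh1: gccacgcGgGAgCGcatccGcgTGgAagcc
Over the 36 pairs of members, 14 to 28 of these 30 bases were the same. The longest exact run shared by a pair of whole transcripts was 10 to 26 bases, and the longest was between *Neurog1* and *Neurog2*. Whether reads were exchanged between members was not tested.

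Among the 9 factors, *Neurog3* rose, *Neurog2*, *Neurod1*, *Neurod4* and *Nhlh1* fell, *Neurog1* was not called, and *Neurod2*, *Atoh1* and *Ptf1a* had too few counts to be tested. Thus 5 of the 6 tested were called, 1 higher and 4 lower, beside 47.9% of all genes tested, and the median log2 fold change of the 6 was -0.51, beside -0.0014 over all genes tested. The groups did not overlap for any of the 6, which was also so for 74.2% of all genes tested. *Patz1* KO was the lower group in 4 of them, beside 37.2% of all genes tested, and the higher group in 2, beside 37%. With 2 libraries a group, a count of called members rests on few values, and members are not replicates of the condition. When a fold change of at least 2 was required (edgeR's glmTreat), none of the 6 was called, *Neurog3* having an adjusted p of 0.167 and the other 5 of 1, against 718 genes called in all.

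**Figure D1:**
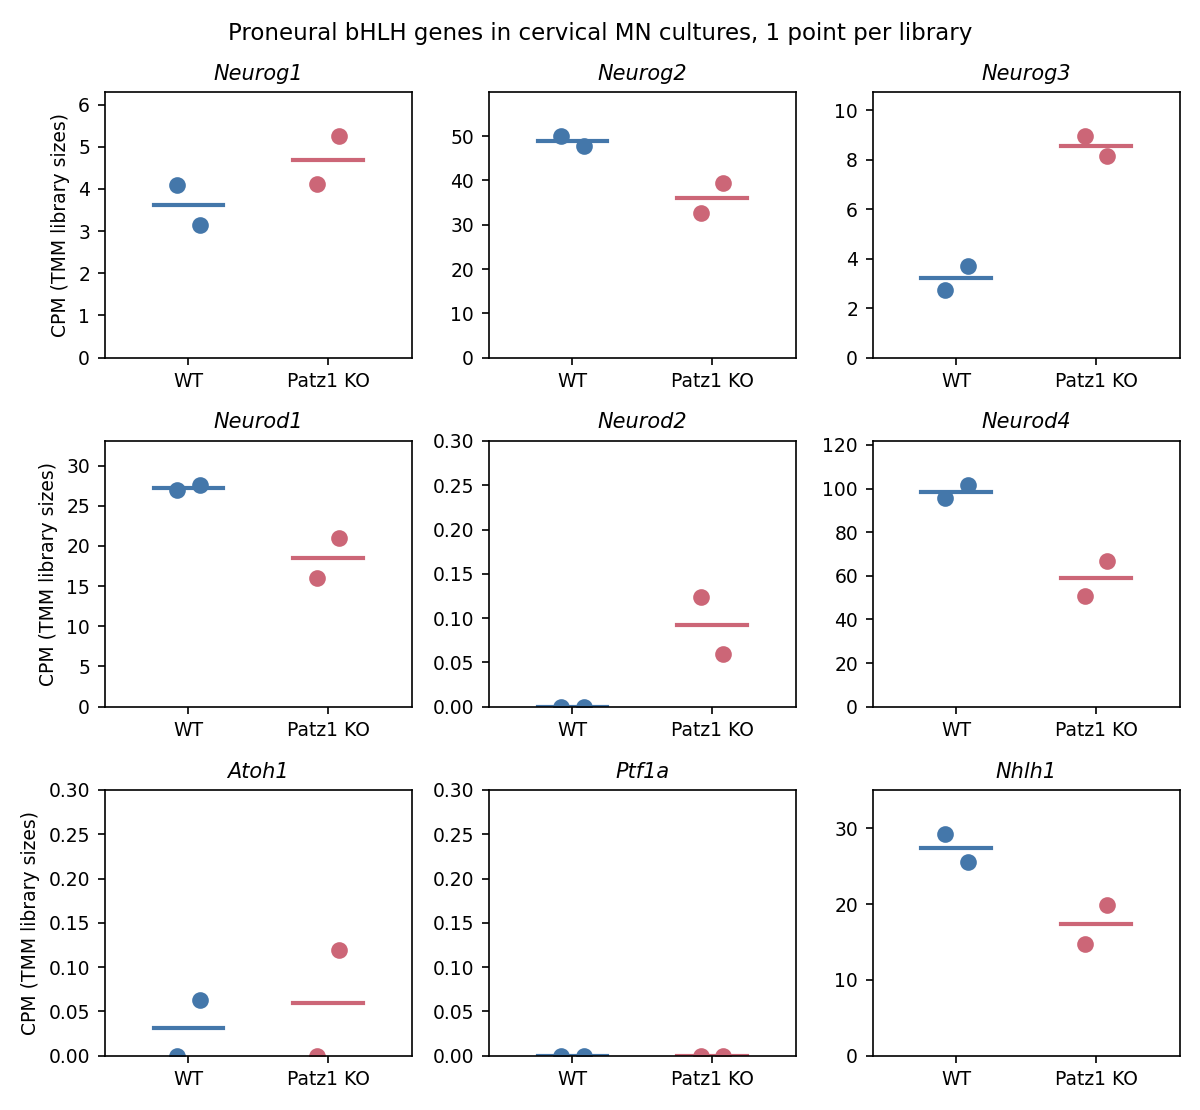
CPM (TMM library sizes) of the 9 factors, with 1 point per library, WT in blue and *Patz1* KO in red, and a bar at the mean of 2 libraries; each panel has its own axis, starting at 0. *Neurog3* is higher in both KO libraries, *Neurog2*, *Neurod1*, *Neurod4* and *Nhlh1* are lower in both, and *Neurod2*, *Atoh1* and *Ptf1a* are at or near 0.

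*Neurog2*, the neurogenin of MN progenitors, is on the plus strand of chromosome 3 (GRCm38, the assembly of mm10, from 127633135 to 127635631). Its counts were 744 and 761 in WT and 790 and 662 in KO, which was 49.95 and 47.9 CPM against 32.6 and 39.5 CPM. Both KO libraries were below both WT libraries. The group means were 48.9 ± 1.48 and 36.0 ± 4.87 CPM (SD, n = 2 each), and the log2 fold change was -0.45 (SE 0.11, adjusted p = 0.00225, edgeR quasi-likelihood test, Benjamini-Hochberg adjusted), so that the KO level was 0.734 times the WT level.

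*Neurog1*, with which it shared the longest exact run, marks other progenitors of the spinal cord and the precursors of sensory neurons. The gene lies on chromosome 13 from 56250478 to 56252163 on the minus strand and had 61 and 50 counts in WT, against 100 and 88 in *Patz1* KO. In CPM it was 4.10 and 3.14 against 4.13 and 5.25, so that the lower KO library was level with the higher WT library. The log2 fold change of 0.36 (SE 0.24, adjusted p = 0.235, edgeR quasi-likelihood test, Benjamini-Hochberg adjusted) was not past the threshold, and it went from 0.19 to 0.56 when single libraries were left out. A change of *Neurog1* was not detected.

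*Neurog3* was the only member that rose. It lies on chromosome 10 from 62133090 to 62134763 on the plus strand and had 41 and 59 counts in WT against 217 and 137 in *Patz1* KO. This was 2.75 and 3.71 CPM in WT and 8.95 and 8.17 CPM in KO, and both KO libraries were well above both WT libraries. The means were 3.23 ± 0.678 and 8.56 ± 0.554 CPM (SD, n = 2 each), with a log2 fold change of 1.40 (SE 0.22, adjusted p = 4.04e-05, edgeR quasi-likelihood test, Benjamini-Hochberg adjusted), or 2.64 times the WT level. Its annotated exons overlap those of *Fam241b* on the other strand over 273 bases, and the strand setting of the counting is not given in the sources used here. That gene, listed in the counts as *2010107G23Rik* and looked up for this overlap, had 148 and 123 counts in WT, against 343 and 280 in KO, a log2 fold change of 0.80 (SE 0.16, adjusted p = 0.0006 by the same test). How far the overlap touches the *Neurog3* counts was not tested.

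*Neurod4*, a NeuroD factor of newborn neurons and the most highly expressed member, lies on chromosome 10 from 130268152 to 130280240 on the minus strand. It had 1423 and 1614 counts in WT, against 1231 and 1121 in KO, or 95.5 and 101.5 CPM against 50.8 and 66.8 CPM. This was the largest fall among the members, from 98.5 ± 4.23 to 58.8 ± 11.4 CPM (n = 2 each, SD), with a log2 fold change of -0.75 (SE 0.11, adjusted p = 2.88e-05, edgeR quasi-likelihood test, Benjamini-Hochberg adjusted).

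*Neurod1*, which acts in the differentiation of many neurons and of endocrine cells, lies on chromosome 2 from 79452521 to 79456751 on the minus strand. Its counts were 401 and 438 in WT and 389 and 353 in KO, which was 26.9 and 27.5 CPM against 16.05 and 21.0 CPM. The WT libraries were nearly level and both KO libraries lay below them. The means were 27.2 ± 0.442 and 18.5 ± 3.54 CPM (SD, n = 2 each) and the log2 fold change was -0.57 (SE 0.13, adjusted p = 0.0018, edgeR quasi-likelihood test, Benjamini-Hochberg adjusted). Without *Patz1* KO replicate 1 the log2 fold change was -0.37, and it was still called. Its exons overlap those of *Cerkl* on the same strand over 201 bases, and those of *Gm26755* on the other strand over 154 bases. *Cerkl*, also looked up for its overlap, had 8 to 19 counts in each library.

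*Nhlh1*, a bHLH factor of neurons that have just left the cell cycle, lies on chromosome 1 from 172052292 to 172057573 on the minus strand. Its 435 and 406 counts in WT stood against 358 and 333 in KO, or 29.2 and 25.5 CPM against 14.8 and 19.9 CPM. The groups did not overlap. The means were 27.4 ± 2.59 and 17.3 ± 3.596 CPM (SD, n = 2 each), and the log2 fold change was -0.67 (SE 0.14, adjusted p = 0.000693, edgeR quasi-likelihood test, Benjamini-Hochberg adjusted).

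The remaining members were at or under a floor of 3 counts in every library. *Neurod2*, a factor of maturing forebrain neurons on chromosome 11 (98325415 to 98329648, minus strand), had 0 and 0 counts in WT, against 3 and 1 in KO. *Atoh1*, the factor of the most dorsal interneurons on chromosome 6 (64729125 to 64731245, plus strand), had 0 and 1 counts in WT, against 0 and 2 in KO. *Ptf1a*, which specifies dorsal inhibitory interneurons and pancreatic cells, is on chromosome 2 (19445663 to 19447501, plus strand) and had 0 counts in all 4 libraries. A count of 3 was worth 0.201 and 0.189 CPM in the WT libraries and 0.124 and 0.179 CPM in the KO libraries, so levels of these 3 genes up to about those values could not be told from 0. The floor covers counting error only, since reads without molecular identifiers are not independent molecules.

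In each of the 4 factors that fell, *Patz1* KO replicate 1, the most deeply sequenced library, had the lower CPM of the KO pair. Without it the log2 fold changes were closer to 0 (-0.30 for *Neurog2*, -0.56 for *Neurod4* and -0.46 for *Nhlh1*), and without *Patz1* KO replicate 2 they were further from it (-0.58, -0.95 and -0.88). All 4 stayed below 0 in these fits. *Neurog3* stayed above 0, with log2 fold changes of 1.33 without *Patz1* KO replicate 1 and 1.47 without *Patz1* KO replicate 2. Its values were 1.21 without WT replicate 1 and 1.64 without WT replicate 2. The share of *Rn45s*, *Rpph1* and *Rmrp*, abundant non-coding RNAs, was 6.33% to 6.81% of the counts in 3 libraries and 9.65% in *Patz1* KO replicate 2, and its part in the difference between the KO libraries was not tested.

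**Figure D2:**
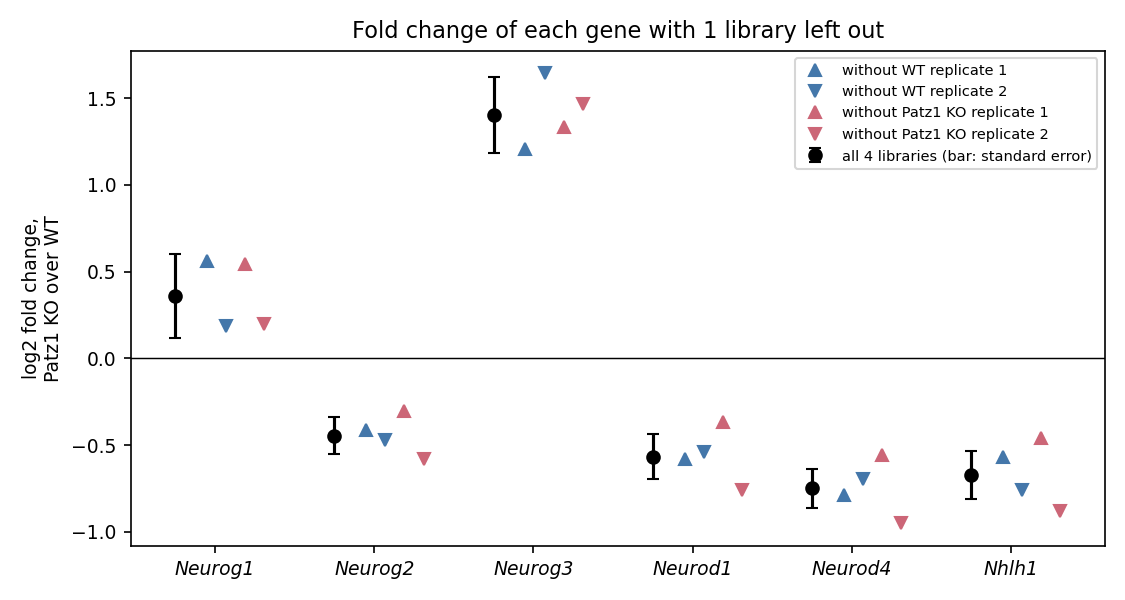
Log2 fold change (*Patz1* KO over WT) of the 6 tested factors with all 4 libraries (black, bar: standard error) and with each library left out in turn (triangles). *Neurog1* and *Neurog3* stay above 0 and the other 4 below it; without *Patz1* KO replicate 1 the 4 falls are at their smallest, with -0.37 for *Neurod1*.

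Levels were compared between members as CPM per kilobase of annotated exon. In WT the order was *Neurod4* (29.5), *Neurog2* (21.96), *Nhlh1* (11.1), *Neurod1* (9.98), *Neurog1* (2.15) and *Neurog3* (1.93), as means of 2 libraries. *Neurog1* and *Neurog3* changed places between the WT libraries (2.43 and 1.64 in replicate 1, 1.87 and 2.22 in replicate 2) and were not separable. In *Patz1* KO the order was *Neurod4* (17.6), *Neurog2* (16.2), *Nhlh1* (7.03), *Neurod1* (6.80), *Neurog3* (5.11) and *Neurog1* (2.78), the same in both KO libraries. *Neurod4* and *Neurog2* differed by less than the spread between the KO libraries, with 15.2 and 19.98 for *Neurod4* against 14.6 and 17.7 for *Neurog2*, and so did *Nhlh1* and *Neurod1*.

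Summed over the 9 factors, the level was 208 and 209 CPM in WT and 127 and 161 CPM in *Patz1* KO. Within that sum *Neurod4* took 45.8% and 48.5% in WT and 39.9% and 41.6% in KO, while *Neurog3* took 1.32% and 1.77% in WT and 7.03% and 5.08% in KO. The shares of *Neurod1* were close in the genotypes, 12.9% and 13.2% against 12.6% and 13.1%. Counted within a library, which needs no scaling, *Neurod4* had 191 and 212 counts per 100 counts of *Neurog2* in WT and 156 and 169 in KO. The ratio of this later factor to *Neurog2* was thus lower in both KO libraries. Other later factors were closer between the genotypes. *Neurod1* had 53.9 and 57.6 in WT and 49.2 and 53.3 in KO, and *Nhlh1* had 58.5 and 53.4 against 45.3 and 50.3. *Neurog3* had 5.51 and 7.75 counts per 100 of *Neurog2* in WT and 27.5 and 20.7 in KO. These ratios were chosen after the values had been seen and are given without a test.

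The same was done against a gene of neurons and a gene of progenitors, also chosen after their values were seen. *Elavl3*, an RNA-binding protein made by neurons from their birth on, and *Sox2*, a factor of neural progenitors, were not called (log2 fold changes 0.13 and -0.20, adjusted p = 0.24 and 0.08, edgeR quasi-likelihood test, Benjamini-Hochberg adjusted). Per 100 counts of *Elavl3*, *Neurog2* had 19.4 and 19.5 counts in WT, against 11.3 and 15.0 in KO. *Neurod4* had 37.0 and 41.4 in WT and 17.6 and 25.3 in KO by the same measure. Against *Sox2* the differences were smaller, with 27.1 and 24.0 per 100 counts against 20.5 and 22.4 for *Neurog2*, and 51.8 and 50.9 against 32.0 and 37.9 for *Neurod4*. For all 4 factors that fell, the groups did not overlap on either measure. The CPM groups of these 4 did not overlap to begin with, which was so for 74.2% of all genes tested. Since both denominators changed little, this separation adds no separate support.

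**Figure D3:**
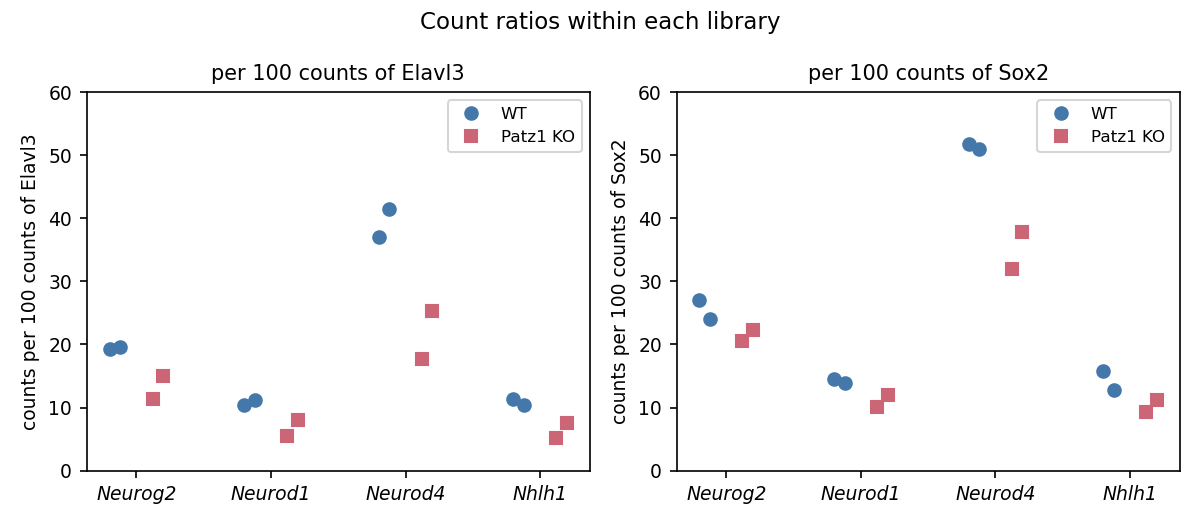
Counts of *Neurog2*, *Neurod1*, *Neurod4* and *Nhlh1* per 100 counts of *Elavl3* (left) and of *Sox2* (right), 1 symbol per library, WT as blue circles and *Patz1* KO as red squares. In each column both KO libraries are below both WT libraries, by least for *Neurog2* per *Sox2* (24.0 in the lower WT and 22.4 in the higher KO library).

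Among 13 other neural bHLH genes, 8 were tested, and 2 were lower, 0 higher and 6 not called, with a median log2 fold change of -0.42. *Nhlh2*, the paralog of *Nhlh1*, had 2192 and 2342 counts in WT, against 2146 and 1981 in KO, with 147.2 ± 0.0947 against 103 ± 20.9 CPM (SD, n = 2 each). Its log2 fold change was -0.51 (SE 0.11, adjusted p = 0.000852, edgeR quasi-likelihood test, Benjamini-Hochberg adjusted), and -0.31 without *Patz1* KO replicate 1. *Bhlhe23*, a relative of the Olig factors whose exons overlap *Gm14343*, fell from 73 and 65 counts to 49 and 31 counts (log2 fold change -1.20). *Olig2*, the partner of *Neurog2* in MN progenitors, had 949 and 1007 counts in WT, against 1338 and 974 in KO, a log2 fold change of -0.17 (SE 0.09) that was not called (adjusted p = 0.148 by the same test). The whole list summed to 255 and 258 CPM in WT and 181 and 216 CPM in KO.

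The dimer partners and their inhibitors were lower in part. Of the 7 genes of E proteins and Id proteins all were tested, 5 were lower, 0 were higher and 2 were not called, with a median log2 fold change of -0.32. *Id3*, an inhibitor of E proteins, fell from 1614 and 1605 counts to 865 and 539 counts, which was 105 ± 5.24 and 33.9 ± 2.51 CPM (n = 2 each, SD), by a log2 fold change of -1.62 (adjusted p = 5.11e-10, edgeR quasi-likelihood test, Benjamini-Hochberg adjusted). *Id1* fell from 491 and 562 counts to 386 and 290 (log2 fold change -1.04). *Tcf12*, an E protein, went from 2939 and 3367 counts to 3114 and 2219, which was 205 ± 10.2 CPM against 130.4 ± 2.72 CPM (log2 fold change -0.65). Another E protein, *Tcf4*, was lower by a log2 fold change of -0.32, and so was *Tcf3*, named here after its value was seen, by -0.31. *Tcf3* and *Tcf4* were no longer called without WT replicate 2, which left 3 of the 7 called. Thus both the genes that pair with the proneural factors and genes that hinder the pairing were among those that fell.

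The list of Hes and Hey repressors, which also holds *Bhlhe40*, moved in both directions. Several of the Hes and Hey genes carry the Notch signal and act against proneural genes. Of 11 listed genes 8 were tested, with 4 higher, 3 lower and 1 not called. *Hes5*, a Notch target of progenitors whose exons overlap *Gm20421* on the other strand, had 658 and 624 counts in WT, against 513 and 349 in KO, or 41.7 ± 3.49 against 21.0 ± 0.251 CPM (n = 2 each, SD), a log2 fold change of -0.99 (adjusted p = 9.2e-07, edgeR quasi-likelihood test, Benjamini-Hochberg adjusted). *Hey1* fell from 1206 and 1318 counts to 994 and 643 (log2 fold change -1.04), and *Heyl* from 56 and 63 counts to 24 and 7 (-2.36). *Bhlhe40*, a repressor that also responds to hypoxia, rose from 49 and 65 counts to 557 and 444 (log2 fold change 2.73). *Hes1*, *Hes6* and *Hey2*, named after their values were seen, were higher by log2 fold changes of 0.48, 0.38 and 0.55, *Hes6* being an inhibitor of *Hes1* that proneural factors raise. *Hey2* had an adjusted p of 0.0375 (edgeR quasi-likelihood test, Benjamini-Hochberg adjusted) and was no longer called without WT replicate 1, WT replicate 2 or *Patz1* KO replicate 2, which left 6 of the list called.

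**Figure D4:**
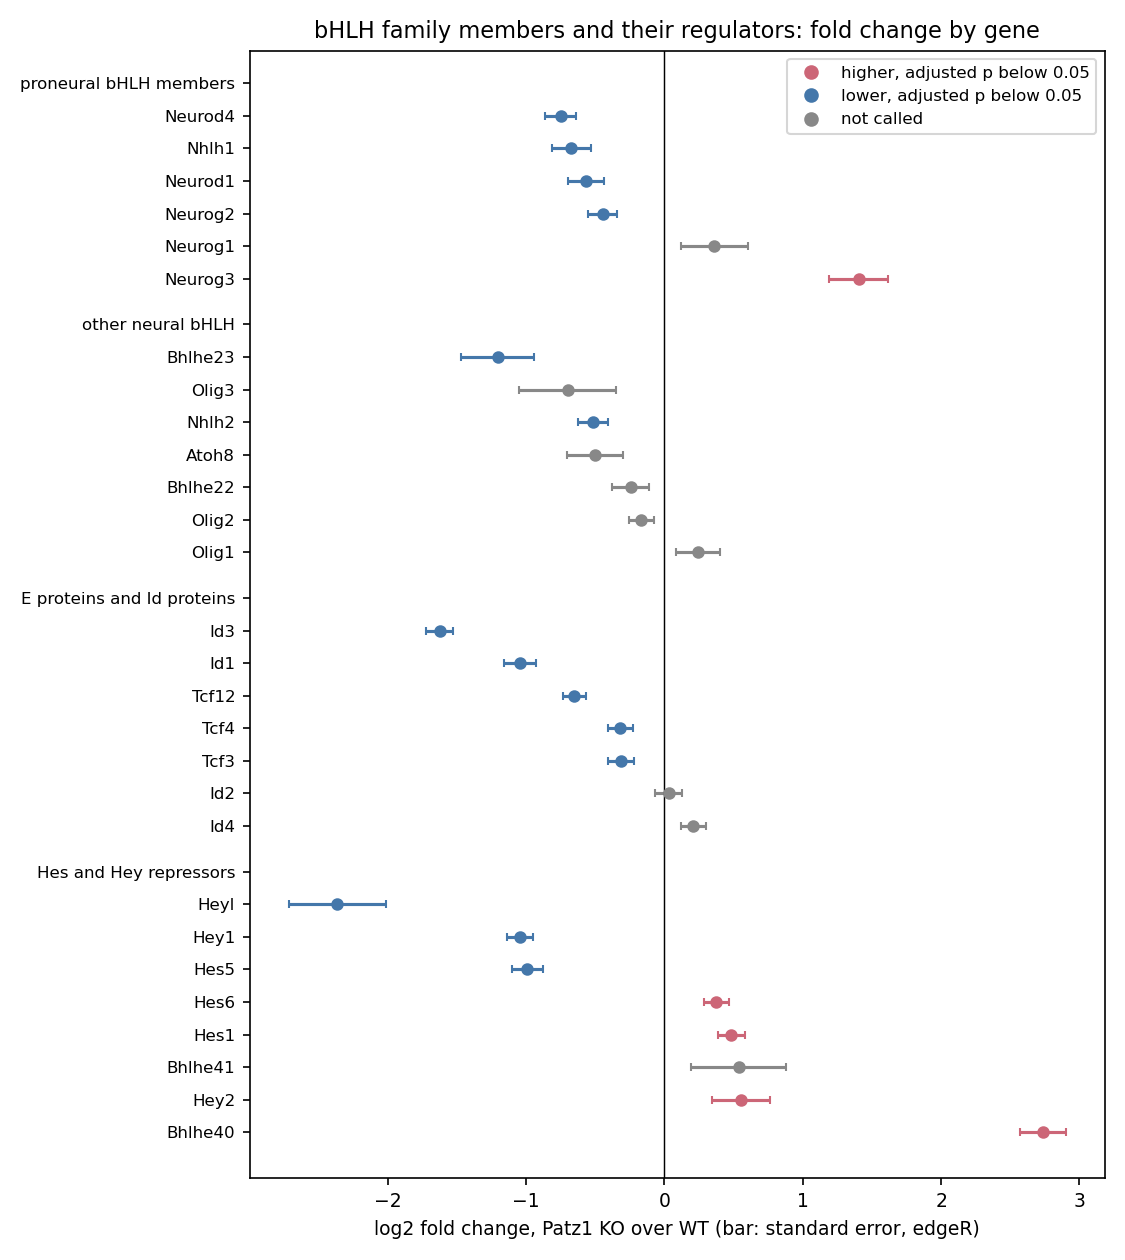
Log2 fold change (*Patz1* KO over WT, bar: standard error) of tested genes among the proneural members, the other neural bHLH genes (7 of the 8 tested), the E and Id proteins, and the Hes and Hey repressors; red marks higher and blue lower genes (adjusted p below 0.05), grey the others. *Neurog3* (1.40) and *Bhlhe40* (2.73) are furthest to the right, and *Heyl* (-2.36) furthest to the left.

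Genes known as targets of proneural factors or as early products of neurons moved in both directions. Of 35 listed, 33 were tested, and 13 were higher, 5 lower and 15 not called, with a median log2 fold change of 0.13. Their summed level was 5195 and 4897 CPM in WT and 7256 and 6974 CPM in KO. The most highly expressed genes weigh most in this sum. *Tubb3*, named after its value was seen, had means of 1673 CPM in WT and 2421 CPM in KO. *Dll1*, a Notch ligand raised by neurogenins, had 769 and 748 counts in WT, against 1244 and 839 in KO, which was 49.3 ± 3.24 against 50.7 ± 0.916 CPM (SD, n = 2 each), and was not called (log2 fold change 0.04, adjusted p = 0.76, edgeR quasi-likelihood test, Benjamini-Hochberg adjusted). *Btg2*, which marks progenitors at their last division, rose from 1226 and 1422 counts to 4164 and 3096 (log2 fold change 1.05). *Dcx*, a microtubule protein of young neurons, rose from 830.5 ± 5.44 to 1676 ± 58.9 CPM (log2 fold change 1.01), and *Rcor2*, a corepressor, rose by 0.89 on the log2 scale. *St18*, a zinc finger factor of newborn neurons, fell from 1015 and 1092 counts to 995 and 675 (log2 fold change -0.75). Without WT replicate 2, 11 of the list were called in place of 18.

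Of the 10 motor neuron genes, all were tested, 9 were higher, 0 were lower and 1 was not called, with a median log2 fold change of 0.74. *Mnx1* rose from 51.3 ± 0.943 to 94.6 ± 5.22 CPM (SD, n = 2 each; log2 fold change 0.88, adjusted p = 5.3e-07, edgeR quasi-likelihood test, Benjamini-Hochberg adjusted). *Chat*, the enzyme that makes acetylcholine, rose by 0.99 and *Prph*, an intermediate filament of peripheral neurons, by 1.33 on the log2 scale. *Isl1*, a LIM homeobox factor of MNs and sensory neurons, had 1971 and 2133 counts against 2704 and 2044 and was the gene not called (log2 fold change -0.19, adjusted p = 0.0767 by the same test). Among 13 neural progenitor genes 12 were tested, with 5 higher, 4 lower and 3 not called. *Pax6*, a factor of progenitors, fell from 353 and 372 counts to 278 and 190 (log2 fold change -1.05), and *Sox1*, another, rose by 1.03 and *Nkx6-2*, a ventral homeobox factor, by 2.81. These lists give the summed level of motor neuron genes as 1139 and 1077 CPM in WT and 1673 and 1630 CPM in KO, and that of progenitor genes as 2426 and 2293 against 2386 and 2378 CPM. The part of either in the fall of the proneural factors was not tested.

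*Neurog3* is shared by the p3 progenitors of the ventral cord, from which V3 interneurons come, and by pancreatic endocrine precursors, and the markers of both were read beside it. Of 6 ventral p3 and V3 genes 5 were tested, with 2 higher, 1 lower and 2 not called. *Nkx2-9*, a homeobox factor of the most ventral progenitors, rose from 50 and 85 counts to 506 and 364 (log2 fold change 2.28, adjusted p = 1.96e-08, edgeR quasi-likelihood test, Benjamini-Hochberg adjusted). *Nkx2-2*, which defines p3, rose from 110 and 104 counts to 391 and 271, or from 6.96 ± 0.597 to 16.1 ± 0.0196 CPM (SD, n = 2 each; log2 fold change 1.21, adjusted p = 4.87e-06 by the same test), and its exons overlap *Nkx2-2os* on the other strand. *Sim1*, a marker of V3 neurons, fell from 206 and 213 counts to 221 and 152 (log2 fold change -0.58). *Neurog3* had 37.3 and 56.7 counts per 100 of *Nkx2-2* in WT and 55.5 and 50.6 in KO, so the groups overlapped on this ratio, whereas per 100 counts of *Nkx2-9* it had 82.0 and 69.4 in WT and 42.9 and 37.6 in KO. The p3 and V3 list summed to 28.8 and 30.7 CPM in WT and 52.2 and 52.3 CPM in KO.

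The pancreatic endocrine and endoderm list held 17 genes, of which 11 were tested, with 3 higher, 6 lower and 2 not called (median log2 fold change -2.35). The endocrine genes *Pdx1*, *Ins1*, *Ins2* and *Gcg* had 0 counts in all 4 libraries. *Foxa2*, a factor of endoderm and floor plate, fell from 418 and 451 counts to 125 and 100 (log2 fold change -2.35). *Dab2*, an endocytic adaptor abundant in extraembryonic endoderm, and *Gata4*, a factor of endoderm and heart, were lower by -3.34 and -3.49. The sum of the list was 158 and 156 CPM in WT and 145 and 151 CPM in KO. *Chga* and *Chgb*, proteins of secretory granules in endocrine cells and neurons that were named after their values were seen, were higher, from 561 and 592 counts to 1606 and 1200 (log2 fold change 0.88) and from 546 and 531 to 1237 and 811 (0.51). *Neurog3* thus rose in cultures in which *Foxa2*, *Dab2* and *Gata4* were lower and *Nkx2-2*, *Nkx2-9*, *Chga* and *Chgb* were higher, and the part of any of these in its level was not tested.

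Markers of cells that use the other members were read in the same way. For *Atoh1* and *Ptf1a*, 20 dorsal spinal cord genes were listed, of which 13 were too low to be tested, 0 were higher, 5 were lower and 2 were not called. *Foxp2*, found in several interneuron classes, fell by 1.43 on the log2 scale, and *Kirrel2*, a target of *Ptf1a*, had 14 and 12 counts in WT, against 1 and 2 in KO, at least 5.60-fold lower when the KO group is set at the floor. The dorsal list summed to 42.5 and 48.6 CPM in WT and 20.1 and 27.1 CPM in KO, and 3 of its genes were called without WT replicate 2, with DESeq2's Wald test or at an adjusted p below 0.01, and 2 when at least 10 counts were required in every library. Of 15 genes of V0 to V2 interneurons, the ventral classes on the dorsal side of the MNs, 10 were tested, with 6 higher, 0 lower and 4 not called. *Lhx5*, a LIM homeobox factor whose exons overlap *Gm27199*, rose from 6 and 13 counts to 106 and 114 (log2 fold change 3.14), and *Tal1*, a bHLH factor of V2b interneurons, by 2.56 on the log2 scale. Under the filter of at least 10 counts in every library, 2 of the V0 to V2 list were called. It leaves genes below 10 counts in any library, among them *Kirrel2* and *Lhx5*, without a test.

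For *Neurog1*, which is used by sensory neuron precursors, 17 sensory neuron and neural crest genes were listed, of which 14 were tested, with 5 higher, 3 lower and 6 not called. *Ntrk2* and *Ntrk3*, the receptors of the neurotrophins BDNF and NT-3, which MNs carry as well, rose by 1.49 and 1.84 on the log2 scale. *Foxd3*, which marks neural crest and V1 interneurons, rose by 2.51. The genes that fell were *Six4*, *Eya1* and *Eya2*, factors of sensory placodes, with log2 fold changes of -1.11, -0.98 and -0.76, all named after their values were seen. Of 11 astrocyte and oligodendrocyte genes 8 were tested, with 4 higher, 2 lower and 2 not called. *Slc1a3*, the glutamate transporter of glia and radial glia, rose by 1.25, while *Pdgfra*, the receptor of oligodendrocyte precursors that mesenchyme and endoderm also carry, fell by 3.96 on the log2 scale. Of 10 genes of undifferentiated stem cells 4 were tested, with 0 higher, 2 lower and 2 not called, *Utf1* and *Fgf4* had 0 counts in every library, and the list summed to 9.80 and 12.7 CPM in WT and 6.31 and 8.35 CPM in KO. Only 1 of them was called without WT replicate 1, without WT replicate 2, with DESeq2's Wald test or at an adjusted p below 0.01.

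**Figure D5:**
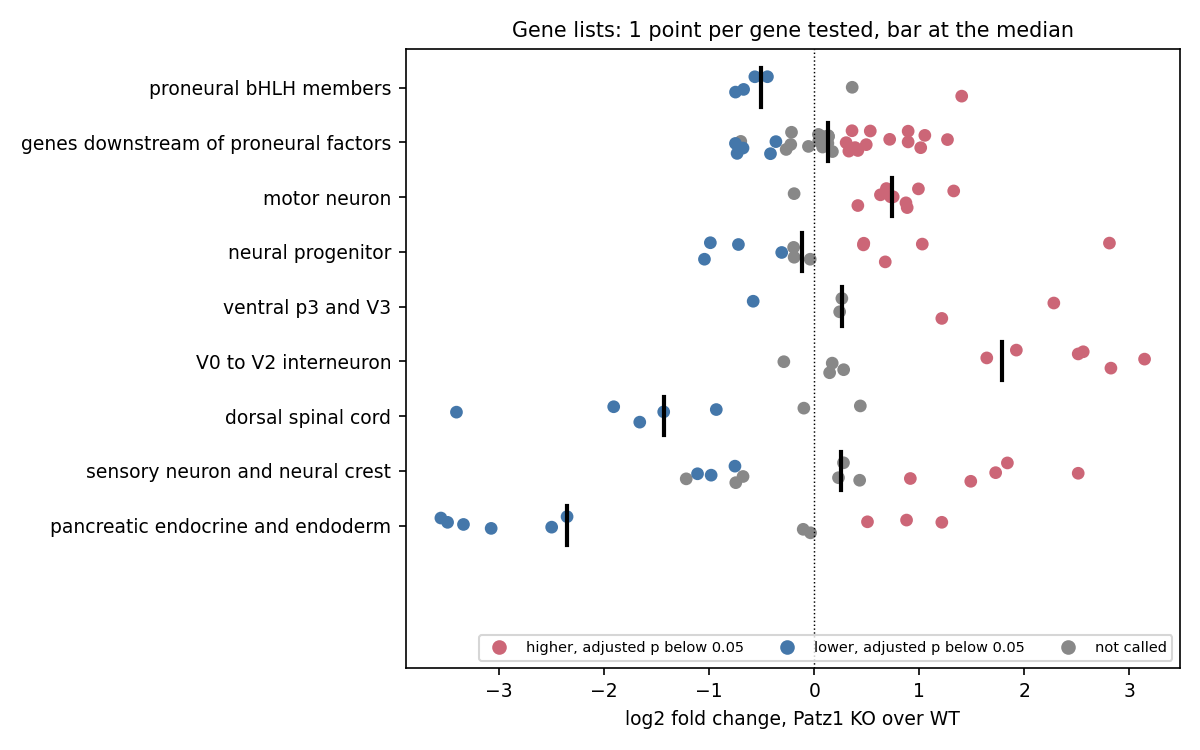
Log2 fold change (*Patz1* KO over WT) of each tested gene in 9 lists, 1 point per gene, with a black bar at the list's median; red marks higher and blue lower genes (adjusted p below 0.05), grey the others. The median of the proneural members is at -0.51, that of their downstream genes at 0.13 and that of motor neuron genes at 0.74.

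The pattern of each called member over the 4 libraries was compared with that of 13352 genes of at least 1 CPM, as the distance between mean-centred log2 CPM values. Nearest to *Neurog2* were *Nudcd2* (0.023), *Sfxn2* (0.0284) and *Polr3k* (0.0294), and nearest to *Neurod4* were *Npm1* (0.0567), *Tcf7l2* (0.0659) and *Magoh* (0.0713). *Neurod1* was nearest to *Snrpd1* (0.0235), *Snhg5* (0.0434) and *Nhlh2* (0.0503). *Nhlh1* was nearest to *C430049B03Rik* (0.0512), *Hist1h3b* (0.0603) and *Itgb3bp* (0.0651), and *Neurog3* to *Rapgefl1* (0.0981), *Slc45a3* (0.113) and *Samd9l* (0.121). Between members the distance was 0.16 for *Neurod1* and *Neurog2*, 0.194 for *Neurod1* and *Neurod4* and 0.194 for *Neurod1* and *Nhlh1*, while *Neurog3* was 1.92 to 2.22 from the 4 factors that fell. The 4 points of each pattern share their libraries and depths, and many genes of one direction lie close together on such a scale.

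The promoters were read because PATZ1 binds G-rich DNA and proneural factors bind E-boxes. Windows of 300 bases, 250 before and 50 after the annotated start, were taken from RefSeq on GRCm38.p6, and all 9 members matched by symbol, with 10 windows. The word GGGAGGG, searched on both strands as GGGAGGG or CCCTCCC, was in the windows of 8 of the 9 members, all but *Nhlh1*. It was in 22% of all 32851 windows and in 32.6% of those with a G+C content of at least the median of 52.7%. The word was thus present in members that rose, fell and were at the floor. The stretches of the called members that hold it are shown 5′ to 3′ on the strand of the gene, with the word in capitals.
Neurog2, chr3:127632926-127632954, plus strand: ggccaggccagGGGAGGGggagagggact
Neurog2, chr3:127632995-127633023, plus strand: agaataagctgGGGAGGGagagcggggga
Neurog3, chr10:62132881-62132909, plus strand: gagtgctgctcCCCTCCCccgacccctgc
Neurod1, chr2:79456769-79456797, minus strand: ggaaagttctgGGGAGGGgtgaatgaggg
Neurod4, chr10:130280294-130280322, minus strand: aggctaggaagGGGAGGGgctaccctgtg
A match describes the letters of the window and shows no binding.

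E-boxes of the form CANNTG were in the windows of 6 of the 9 members, beside 72.3% of all windows. The form CAGCTG, a palindrome that is also a CANNTG, was in those of *Neurod4* and *Neurog3*, beside 16.3% of all windows. CAGATG, searched on both strands as CAGATG or CATCTG, was in those of *Neurod2* and *Nhlh1*, beside 17.2%. The E-boxes of the called members that lie upstream of the start and whose stretches could be shown are given 5′ to 3′ on the strand of the gene, with the E-box in capitals.
Neurog3, chr10:62132914-62132941, plus strand: tgtccggaatcCAGCTGtgctctgcggg
Nhlh1, chr1:172057783-172057810, minus strand: tgcatggagaaCAGATGtccctgctccc
*Neurog2* had no CANNTG in its window, and these letters may stand elsewhere.

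The tested genes within 500 kb of the called members, where their symbols matched the annotation, were read for direction. Over all genes tested, 24.1% were higher and 23.8% lower. Around *Neurog2*, 4 of 5 were lower, 0 were higher and 1 was not called, with *Alpk1* (34679 bases away) at -0.83 and *Larp7* (79786 bases away) at -0.95. Around *Neurog3*, 2 of 15 were higher, 5 were lower and 8 were not called. The overlapping *2010107G23Rik* (*Fam241b*), higher by 0.80, did not match the annotation by symbol and is not among the 15. Nearest of the 15 was *Tspan15* (50633 bases away), which had a log2 fold change of -0.06 and was not called. *Hk1* (134092 bases away) was higher by 0.87, and *Hkdc1* and *Srgn* were lower by -3.24 and -4.64. Around *Neurod1*, 0 of 4 were higher, 2 were lower and 2 were not called. Around *Nhlh1*, 4 of 13 were higher, 3 were lower and 6 were not called, with *Ncstn* (8440 bases away) at -0.06 and not called. No matched neighbour of *Neurod4* was tested. These neighbours were named after their values were seen.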

How the data were processed

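The authors mapped stranded, ribosome-depleted total RNA reads to mm10 with Bowtie 2, and the deposited values are raw read counts per gene symbol. The submitters' processing notes also name TopHat2 (2.1.1), Bowtie2 (2.3.1), featureCounts (1.6.2) and DESeq2. The annotation and strand setting are not given in the sources used here. Replicates were independent differentiations per the study's methods, and they differed beyond sampling noise (chi-square divided by genes, 9.87 in WT and 22.0 in *Patz1* KO).

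Libraries were scaled with TMM and compared with edgeR's quasi-likelihood test (edgeR 4.0.16, limma 3.58.1, R 4.3.3) on the 14269 genes that passed filterByExpr (minimum count 10), with Benjamini-Hochberg adjustment over all of them. The SE is the absolute log2 fold change over the root of the F statistic. With 2 libraries a group, an exact permutation test of 1 gene cannot pass the threshold and was not run. Alternatives were DESeq2 (1.42.0), other scalings and filters, a replicate block, a stricter threshold, glmTreat and leaving out each library. Positions are from GENCODE M21, in which 21785 of the 23420 symbols matched. Python 3.11.15 was used for tables and plots.

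The members and lists were chosen with earlier results of these data known. Named genes were the 9 members, *Patz1*, up to 4 genes of each list with the smallest p, *Olig2*, *Isl1*, *Mnx1*, *Hes5*, *Dll1* and up to 3 genes nearest to each called member, and list genes with 0 counts in every library were named as well. All others are said to be chosen later. Some genes that the rule named are not reported here. *Foxd3*, *Hes5*, *Nkx2-2*, *Sox10* and *Stmn2* are among the genes that stand in more than 1 list.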

Additional observations from a re-analysis of the deposited data

How the results depend on the processing

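No member changed direction under any of the 13 alternatives. Of the 6 members tested, 5 were called (1 higher and 4 lower) under each alternative except a minimum absolute log2 fold change of 1 (glmTreat), which called 0 members, 0 higher and 0 lower, 24 genes of the lists in place of 83, and 718 of all genes in place of 6836, since it asks for a larger change. Leaving out 1 library, where the lone library is assumed to vary like the other group, gave 5 called members each time and 4521 to 7816 called genes in all, the lowest without WT replicate 2, with 67 to 94 in the lists. Log2 fold changes over the alternatives ranged from -0.58 to -0.30 for *Neurog2*, 1.21 to 1.64 for *Neurog3*, -0.76 to -0.37 for *Neurod1*, -0.95 to -0.56 for *Neurod4* and -0.88 to -0.46 for *Nhlh1*. Adjusted p went up to 0.0237 for *Neurog2* outside glmTreat. For *Neurog1*, adjusted p ranged from 0.0733 to 0.717 outside glmTreat. DESeq2's Wald test called 5116 genes in all and 74 in the lists. With the replicate number as a block, 7361 genes were called in all, 88 in the lists and 5 members. Samples with the same number are known here to share only that number. Their deviations from the group means had a correlation of 0.030 over 14269 genes, which cannot show whether they were handled together. Depth limits *Neurod2*, *Atoh1* and *Ptf1a*, which had at most 3 counts in each library.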
